A study of Homo sapiens with 4 samples.

Results

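Complement is a set of plasma and cell-surface proteins in which proteases activate one another in a cascade that marks targets for removal. C3 is its central protein: convertases built on C2 and C4 or on factor B cleave it, and the larger fragment binds covalently to nearby surfaces. Inhibitors in the fluid phase and on host membranes hold the cascade in check, and fibroblasts are a known source of several of its components outside the liver. The 9 genes described here are 4 activators (C3, CFB, C1R and C1S) and 5 regulators (CFI, SERPING1, CD46, CD55 and CD59), taken by symbol from the 58870 genes listed in each library. They were selected on the expected counts and TPM (transcripts per length, scaled to one total per library) of these same Dox and control libraries, C3 being among the largest differences, so their values are a description: no p-value is given for them, and where a threshold of the fit over all genes is quoted, it describes the fit and is no independent test.

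RNA was measured in BJ cells, a line of human foreskin fibroblasts, in 4 libraries. The 2 control libraries, titled young, came from cells given the solvent DMSO, and the 2 libraries titled aged came from cells given 250 nM of a compound given only as Dox. By the series design the cells were exposed for 24 hours and then kept for 10 days to become senescent, although the treatment protocol can be read in the reverse order. All 4 libraries come from 1 cell line, and nothing in the labels tells if replicates were grown as separate cultures. The p-values below therefore set the difference between groups against the spread among these samples only, estimated in part across all genes. That spread may be technical.

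Rounded expected counts summed to between 42744724 and 47798919 per library. The control pair differed little beyond sampling noise (chi-square per degree of freedom 2.40), whereas the Dox pair differed more (60.5), and within the Dox pair the log2 ratio moved with the GC content of transcripts (Spearman's rho -0.58 across 16717 genes, which are not independent replicates). Counts in genes silent in the control were more common in Dox: 1711 genes had no count in both control libraries and at least 1 in both Dox libraries, against 264 genes with the reverse. All 8 fibroblast markers were detected, with summed levels of 28312 and 27867 CPM (counts relative to the library total, scaled as below) in the control and 20302 and 24955 CPM in the Dox libraries. Of these 8, DCN, LUM and THY1 rose (by 0.43 or less on the log2 scale), COL3A1, PDGFRA and PDGFRB fell (-0.56, -0.88 and -1.05), and COL1A1 and COL1A2, which hold most of the sum, did not pass. Of 8 myeloid markers, 2 rose and TYROBP was at 0 in all 4 libraries. The 2 were CD68 (251 and 261 control counts, 1023 and 1186 Dox counts) and PTPRC (9 and 11, then 90 and 83), and the list summed to 6.64 and 6.16 CPM in the control and 26.7 and 28.8 CPM in Dox. CD163, CSF1R and LYZ had at most 5 counts in any library. Of the 5 hepatocyte markers, TTR was at 0 throughout and ALB had 0, 0, 6 and 4 counts. APOB, the only tested marker of that list, had 25 and 48 control and 13 and 19 Dox counts and did not pass. The hepatocyte list summed to 0.623 and 1.07 CPM in the control and 0.561 and 0.639 CPM in Dox. Summed keratinocyte markers ranged from 9.85 to 12.5 CPM over the libraries, nearly all of it KRT10, while KRT5 and KRT1 were at 0 throughout. Endothelial markers summed to 0.0958 and 0.171 CPM in the control and 0.561 and 0.595 CPM in Dox. No endothelial marker exceeded 11 counts in any library, and none passed. Melanocyte markers summed to between 0.281 and 0.441 CPM. The part of these markers in the results below was not tested. In these bulk samples, fewer cells of a type and less RNA per cell cannot be told apart.

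All 9 genes passed the filter on low counts, so all are described. Levels below are CPM scaled by edgeR's trimmed mean of M-values (TMM), and differences are log2 fold changes, Dox minus control, from edgeR's quasi-likelihood fit over 16749 genes, with their standard errors (SE). In that fit 6 of the 9 genes were higher in Dox and past an adjusted p of 0.05, against 16.5% of all tested genes. A further 2 were lower and past it, against 13.8% of all tested genes. Both Dox libraries lay above both control libraries for 6 of the 9 genes and for 34.6% of tested genes, and below them for 2 of the 9 and for 34.5% of tested genes. Because the genes were chosen with this comparison known, nothing is read from these counts. The median log2 fold change was 0.43 for the 4 activators and 0.86 for the 5 regulators, beside -0.00 for all tested genes. The activator median hides a split of 2 higher and 2 lower genes, while among regulators 4 were higher, 0 lower and 1 not past the threshold.

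**Figure D1:**
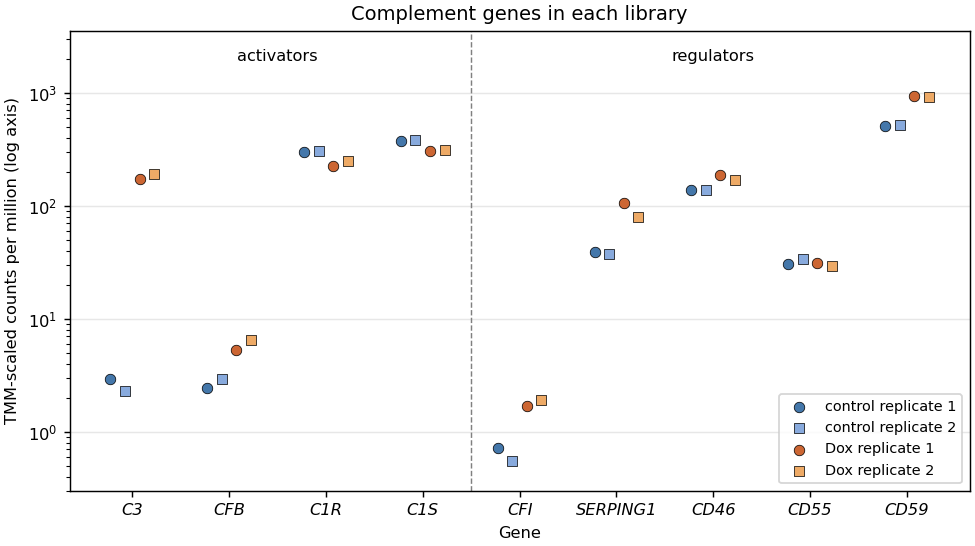
TMM-scaled CPM on a log axis for the 9 complement genes, 1 point per library, with activators left and regulators right of the dashed line. C3 goes from 2.30 and 2.95 CPM in the control to 171 and 189.8 CPM in the Dox libraries, C1R and C1S lie lower in Dox, and the CD55 points of the 2 groups overlap.

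C3 (chromosome 19, 6677704 to 6730562 on the minus strand in GRCh38) is the protein on which all activation routes converge. The control libraries held 123 and 108 counts of it, the Dox libraries 7303 and 8612. As levels these were 2.95 and 2.30 CPM in the control and 171 and 189.8 CPM in Dox. Both Dox libraries were thus far above both control libraries, and the libraries of each group lay close together relative to that gap. The means were 2.63 ± 0.455 CPM and 180.3 ± 13.5 CPM (SD, n = 2 each), a log2 fold change of 6.11 (SE 0.14) or 68.9-fold. C3 ranked 4 from the top by fold change among the 13411 tested genes whose mean level reached 1 CPM. GPR108, a protein-coding gene that overlaps C3 on the same strand, did not share the pattern, with 872 and 986 control counts and 887 and 1106 Dox counts.

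CFB (chromosome 6, 31945650 to 31952084 on the plus strand) encodes factor B, the protease that joins C3b to form the convertase of the alternative pathway. Its levels were 2.44 and 2.90 CPM in the control and 5.31 and 6.41 CPM in the Dox libraries. The groups did not overlap, with a log2 fold change of 1.13 (SE 0.17) or 2.19-fold. CFB overlaps C2 and the read-through gene AL645922.1 on the same strand, which had at most 20 and at most 1 counts in any library. CFB started from nearly the same CPM as C3 in the control and reached a small part of its level in Dox.

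C1R and C1S encode the paired proteases of the first component of the classical pathway, in which C1r cleaves C1s and C1s cleaves C4 and C2. They are neighbours on chromosome 12 (C1R 7080199 to 7092607, minus strand; C1S 6988259 to 7071032, plus strand) and point towards each other. C1R was at 300.4 and 303 CPM in the control and at 227 and 251 CPM in the Dox libraries. C1S was at 373 and 378 CPM in the control and at 306 and 313 CPM in Dox. Both genes were therefore abundant in every library and modestly lower in both Dox libraries, the opposite direction to C3 and CFB. C1R differed by -0.34 (SE 0.08) and C1S by -0.28 (SE 0.07) on the log2 scale. Neither was past the threshold without control replicate 1 or without control replicate 2. On deposited TPM, the Dox libraries straddled the control for both genes, at 39.0 and 40.1 TPM in the control and 26.4 and 46.8 TPM in Dox for C1R, and at 46.3 and 49.0 against 33.9 and 55.1 TPM for C1S. Deposited TPM was higher in Dox replicate 2 than in Dox replicate 1 for every member, so this gap is not particular to C1R and C1S. CD59, for example, was at 135.8 and 223.7 TPM in the Dox libraries, beside 939 and 914 CPM. TPM is scaled by the library's sum of FPKM, a per-length unit relative to sequenced reads. That sum was 3488187 and 3410858 in the control and 4045835 and 2635272 in Dox, so the scaling differs for all genes of the Dox pair. The ratio of C1S to C1R in TPM held between 1.18 and 1.29 in all 4 libraries (1.19 and 1.22 in the control, 1.29 and 1.18 in Dox). C1RL, a related gene that overlaps C1R on the same strand, had 1109 and 1229 control counts and 1158 and 1304 Dox counts. C1S overlaps EMG1 on the same strand (888 and 1048 control counts, 759 and 867 Dox counts). It also overlaps LPCAT3 on the opposite strand (287 and 337 control counts, 528 and 595 Dox counts). Whether reads were divided between C1R or C1S and these overlapping genes was not tested.

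**Figure D2:**
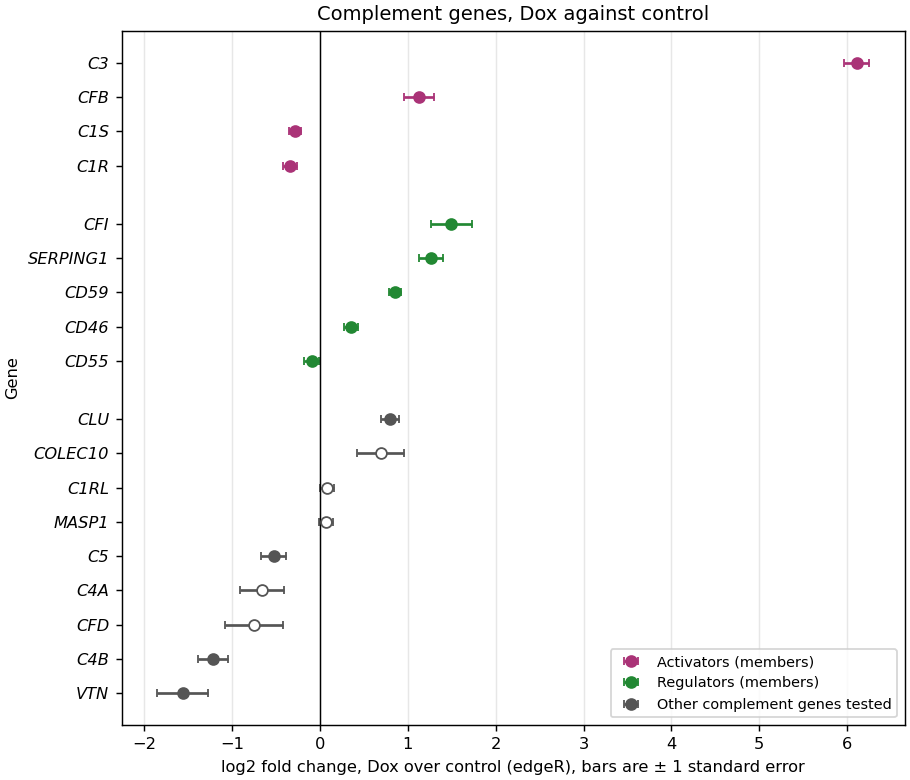
edgeR log2 fold changes (Dox over control, horizontal axis) with ± 1 SE for the 4 activators, the 5 regulators and 9 other tested complement genes; open circles are other genes that did not pass an adjusted p of 0.05. C3 stands alone at 6.11, the regulators run from -0.09 (CD55) to 1.49 (CFI), and the other genes run from -1.56 (VTN) to 0.80 (CLU).

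SERPING1 (chromosome 11, 57597387 to 57614853, plus strand) encodes C1 inhibitor, the serpin that blocks C1r and C1s. Its levels were 39.3 and 37.2 CPM in the control and 105 and 79.5 CPM in Dox. Both Dox libraries were above the control although they differed from each other, with a log2 fold change of 1.27 (SE 0.14) or 2.41-fold. Per length, the summed TPM of C1R and C1S was 9.89 and 9.80 times that of SERPING1 in the control libraries. The same ratio was 2.68 and 3.65 in the Dox libraries, so the inhibitor was closer to its target proteases in transcript level in both of them.

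CFI (chromosome 4, 109740694 to 109802179, minus strand) encodes factor I, the protease that cuts C3b and C4b with the help of cofactors. It was the scarcest of the 9 genes, at 30 and 26 counts with DMSO and 72 and 86 with Dox. These counts correspond to 0.719 and 0.555 CPM in the control and 1.68 and 1.90 CPM in Dox. The groups did not overlap, and the log2 fold change was 1.49 (SE 0.23) or 2.82-fold, the largest of the 5 regulators in this fit. The C3 to CFI ratio in TPM was 3.92 and 3.38 in the control libraries, against 72.9 and 75.7 with Dox. CFI was thus higher in Dox by a much smaller factor than its substrate C3.

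The membrane regulators split 3 ways. CD59 (chromosome 11, 33703010 to 33736491, minus strand), the lipid-anchored protein that blocks assembly of the membrane attack complex, was at 508 and 516 CPM in the control and 939 and 914 CPM in Dox. It was the most abundant of the 9 genes per length in every library, and its log2 fold change was 0.86 (SE 0.07) or 1.81-fold. CD46 (chromosome 1, 207752057 to 207795513, plus strand), a transmembrane cofactor for factor I, was at 139 and 139 CPM in the control and 187 and 168 CPM in Dox. Both Dox libraries were above the control by a small margin, with a log2 fold change of 0.35 (SE 0.08). CD46 was not past the threshold without control replicate 1 or without control replicate 2. CD55 (chromosome 1, 207321376 to 207386804, plus strand), or decay-accelerating factor, which takes C3 convertases apart, was at 30.4 and 33.8 CPM in the control and 30.8 and 29.3 CPM in the Dox libraries. Its groups overlapped, with a log2 fold change of -0.09 (SE 0.09). With all 4 libraries it was the only one of the 9 not past the threshold. Without Dox replicate 1 the log2 fold change was -0.15 and past the threshold, in a fit that leaves 1 Dox library. On log2(TPM + 1) and log2(TPM + 0.1) it turned to 0.02, not past the threshold. CD59 overlaps AL049629.2 on the same strand, which had 28 and 73 control counts and 108 and 173 Dox counts.

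The make-up of these transcripts was compared per length within each library, where TPM ratios do not depend on the library's scaling. CD59 held 42.8% and 42.4% of the summed TPM of the 9 genes in the control libraries, against 52.7% and 53.5% with Dox. C3 held 0.260% and 0.132% in the control libraries, against 7.08% and 8.34% with Dox. The shares of C1R, C1S, CD46 and CD55 were lower in both Dox libraries. C1R held 19.9% and 19.7% with DMSO and 10.2% and 11.2% with Dox, and C1S held 23.6% and 24.1%, then 13.2% and 13.2%. Within the activators, C1R and C1S together made up 98.9% and 99.1% of the TPM with DMSO and 75.9% and 73.9% with Dox, nearly all of the remainder being C3. The summed activators stood at 0.788 and 0.789 of the summed regulators in the control libraries and at 0.447 and 0.493 in the Dox libraries. The ratio was therefore lower in both Dox libraries although C3 was 68.9-fold higher, since C1R, C1S and CD59 hold most of the TPM. The C3 to CD59 ratio alone went from 0.00608 and 0.00312 in the control to 0.134 and 0.156 in Dox.

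**Figure D3:**
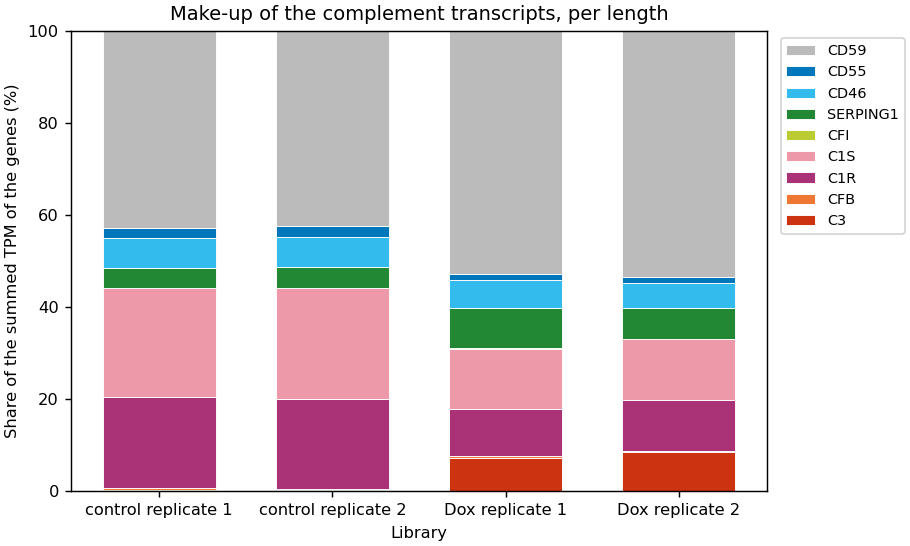
Share of the summed TPM of the 9 genes (vertical axis, percent) held by each gene in each of the 4 libraries. CD59 fills 42.4% to 53.5% of every bar, C1R and C1S shrink in the Dox libraries, and C3 grows from at most 0.260% to 7.08% and 8.34%.

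The length that RSEM assigns to a gene, the mean over its transcript models weighted by their estimated abundance, was not used in choosing the genes. The 2 Dox values lay both above or both below the 2 control values for 2 of the 9 genes, beside 37% of the tested genes that have more than 1 transcript model, so the genes were not set apart by it. C1R was slightly shorter in Dox, at 2347 and 2366 bases in the control and 2317 and 2319 bases in Dox. SERPING1 was also shorter, at 1466 and 1366 bases in the control and 1344 and 1324 bases in Dox. With 2 libraries against 2, an exact permutation test cannot go below 0.33, so no test was made. C3 was at 1806 and 2688 bases in the control and at 2507 and 2354 bases in Dox, with the values overlapping. All 4 values are far below its longest GENCODE 29 model of 5263 bases, while its shortest of 18 models has 280 bases. The level of C3 per length rests on this weighting: with all its reads placed on the longest model, C3 would be at 0.163 and 0.133 TPM in the control and 8.32 and 14.8 TPM in Dox, and the activator to regulator ratio at 0.784 and 0.787 with DMSO and 0.391 and 0.421 with Dox. CPM does not use the length.

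**Figure D4:**
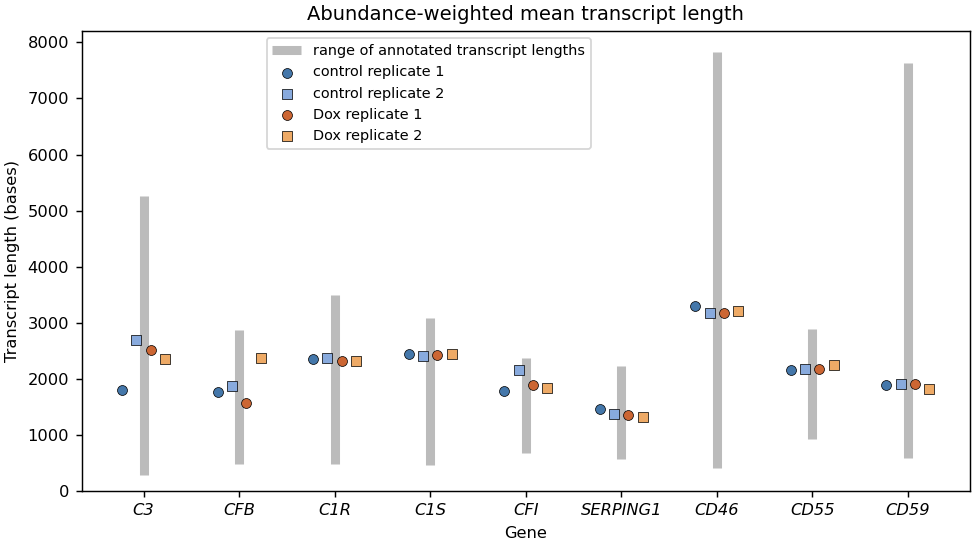
Abundance-weighted mean transcript length in bases (vertical axis) in each library, with grey bars from the shortest to the longest GENCODE 29 transcript of each gene. The 4 libraries of C1R, C1S, CD46, CD55 and CD59 lie close together, whereas C3 and CFB vary most, by 37.7% and 43.1% of their means, without separating the groups.

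Promoter windows of 300 bases, from 250 before to 50 after an annotated RefSeq start (GRCh38.p14), were matched by symbol for 6 of the 9 genes (CFB, C1R, CFI, CD46, CD55 and CD59), in 11 windows of which some overlap. C3, C1S and SERPING1 had no entry. Both strands were searched for letters of 5 motifs: GGGA, any 4 bases and CC for NF-kB, TTNNGNAA for C/EBP, GAAA, any 2 bases and GAAA for the interferon-stimulated response element (ISRE), TTCNNNGAA for the GAS element and TATAAA for the TATA box. The 250 bases before the start are shown for CFB, the activator higher in Dox that has a window, for CFI, the regulator with the largest log2 fold change, and for CD55, whose groups overlapped. Capitals mark the matched letters, and no matches in them overlapped one another. All 3 stretches lie partly or wholly inside the gene spans of GENCODE 29, some of whose transcripts start further upstream.
CFB, chr6:31945845-31946094, plus strand: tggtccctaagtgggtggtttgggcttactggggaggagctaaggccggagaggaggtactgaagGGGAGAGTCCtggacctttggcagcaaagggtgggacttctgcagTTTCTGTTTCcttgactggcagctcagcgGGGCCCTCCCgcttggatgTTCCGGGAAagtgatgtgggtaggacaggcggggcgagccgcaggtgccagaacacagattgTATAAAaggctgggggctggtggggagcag
CFI, chr4:109802000-109802249, minus strand: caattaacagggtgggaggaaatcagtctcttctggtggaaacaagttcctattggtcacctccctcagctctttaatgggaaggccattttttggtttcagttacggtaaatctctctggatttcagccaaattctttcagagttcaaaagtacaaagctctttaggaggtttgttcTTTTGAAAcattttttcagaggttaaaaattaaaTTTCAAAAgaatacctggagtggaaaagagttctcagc
CD55, chr1:207321428-207321677, plus strand: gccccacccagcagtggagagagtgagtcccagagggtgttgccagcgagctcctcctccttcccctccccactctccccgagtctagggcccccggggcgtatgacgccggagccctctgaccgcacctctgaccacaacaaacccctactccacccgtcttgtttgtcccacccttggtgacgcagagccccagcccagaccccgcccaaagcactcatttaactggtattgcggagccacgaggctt
The CFB window holds the NF-kB letters at 2 places, beginning at positions -185 and -111 from the start. It also holds the ISRE letters at -140, the GAS letters at -92 and the TATA box letters at -30. CFB was the only one of the 6 genes with the ISRE or the TATA box letters, which 3.57% and 11.5% of all 35116 windows hold. The NF-kB letters were in windows of CFB and C1R (25.6% of all windows) and the GAS letters in windows of CFB, C1R and CD59 (7.66% of all windows). CFI holds the C/EBP letters at 2 places, positions -72 and -38, letters found in 36.8% of all windows and also in C1R and CD59. No window of CD46 or CD55 holds any of the 5. A match is a description of letters, not a shown binding site, and the part of these letters in the levels was not tested.

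**Figure D5:**
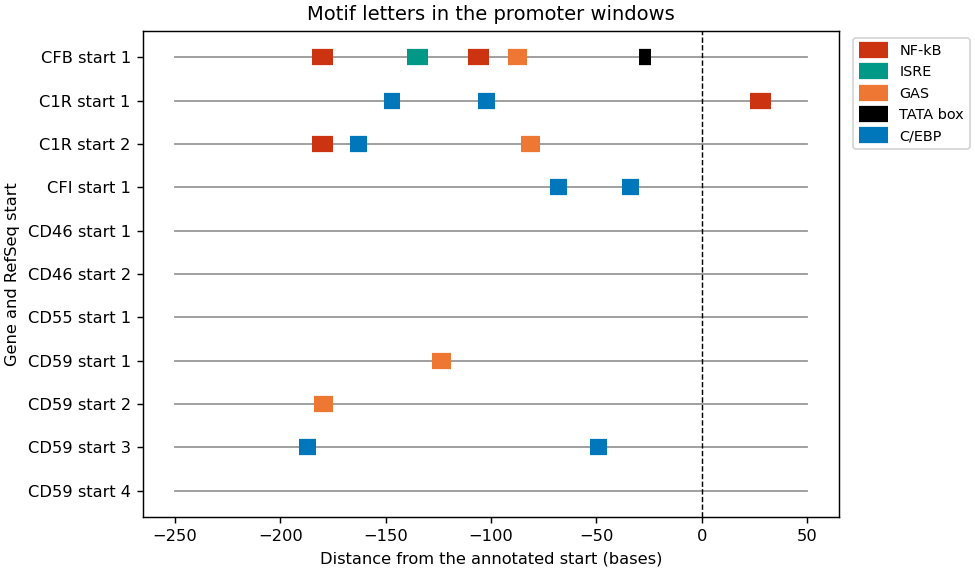
Positions of the 5 motifs' letters (coloured blocks) in the 11 promoter windows of 6 complement genes, by distance in bases from the annotated start (dashed line). CFB carries 5 matches, CD46 and CD55 carry none, and the same GAS letters appear in both overlapping first windows of CD59.

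The rest of the pathway was taken from 7 lists of complement genes, which hold 49 genes beside the 9. Only 11 of the 49 had enough counts to be tested. Of these, 2 rose, 4 fell and 5 did not pass at an edgeR adjusted p of 0.05 over all 16749 genes. Their median log2 fold change was -0.53. Over all tested genes, 16.5% rose and 13.8% fell in the same fit. With only 11 genes, nothing about the pathway is read from these counts. Values are given for 9 of the 11. CLU, the chaperone clusterin that binds the terminal complex, rose by 0.80 (SE 0.11, edgeR adjusted p = 0.00317), a call lost on both TPM scales. VTN, or vitronectin, another terminal pathway inhibitor, fell by 1.56 on the log2 scale (SE 0.29, edgeR adjusted p = 0.0101), from 70 and 54 counts to 21 and 21.

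Outside the 9 genes, none of the 7 tested genes on the lists of classical, lectin, alternative and terminal components rose in this fit. MASP1, however, passed at 0.12 without Dox replicate 1. Of all tested genes 16.5% rose, so with 7 genes this count is not read as a result. C5, cleaved by the convertases that contain C3b, was at 4.48 and 4.29 CPM in the control and 3.18 and 2.91 CPM in Dox and fell by 0.53 (SE 0.15, edgeR adjusted p = 0.038). The C5 call was lost without control replicate 1 or 2, where the edgeR adjusted p was 0.237 and 0.19, with DESeq2 (adjusted p = 0.135) and on log2(TPM + 0.1), and its direction turned on log2(TPM + 1), at 0.01. C4B, which encodes a form of the C4 protein that C1s cleaves, fell by 1.21 (SE 0.17, edgeR adjusted p = 0.00404). That call was lost on both TPM scales. The near-identical copy C4A was at -0.66 (SE 0.25) and did not pass. The summed counts of C4A and C4B, which do not depend on how reads were divided between them, were 387 and 469 with DMSO and 162 and 239 with Dox. MASP1, a protease gene of the lectin pathway, was at 163 and 162 CPM in the control and 163 and 179 CPM in Dox and did not pass, nor did C1RL (0.08), COLEC10 (0.69) and CFD (-0.75). CFD, which encodes the factor D protease that cleaves factor B, had 23 and 40 control counts and 19 and 18 Dox counts.

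The other 38 complement genes were too low to test, with at most 20 counts in any library. C1QA and C1QC, which encode chains of the recognition subunit of C1, were at 0 in all 4 libraries, and C1QB had 0, 0, 1 and 1 counts. C2, the protease of the classical convertase, had 5, 20, 7 and 8 counts. The terminal components C6, C7, C8A, C8B, C8G and C9 had at most 10 counts each. CR1, a membrane regulator, had 0, 0, 3 and 7 counts, and C3AR1, the receptor for the C3a fragment, had 0, 2, 6 and 2. At these counts no difference in a single gene can be read. Over the 38 genes, 24 had more summed raw counts in Dox than in control, 4 had fewer and 10 were at 0 in every library. No such share was computed for low-count genes outside these lists. The 1711 and 264 silent genes of the whole table also lean to Dox, but they were counted by a different rule.

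Genes whose pattern was most like that of a member were named by the Euclidean distance between log2(CPM + 1) values centred on their own mean over the 4 libraries, among 13410 other tested genes whose mean level reached 1 CPM. For C3 these were CLCA2 (distance 1.44), ABI3BP (1.70) and CXCL1 (1.77). CLCA2 had 13 and 19 control and 1119 and 1059 Dox counts, ABI3BP 193 and 215 control and 4677 and 3386 Dox counts, and CXCL1 10 and 10 control and 796 and 728 Dox counts. For CFB the nearest were MYDGF (0.0396), NOMO3 (0.0629) and GDF11 (0.074), and for CFI they were PIM2 (0.0502), KMT2D (0.0505) and ARHGDIA (0.0593). The distance grows with the size of a gene's difference, so the lists of C3 and of the other 2 genes are not on one scale. With 4 libraries in 2 groups, the measure mostly ranks genes by the size of the difference between groups on the log2(CPM + 1) scale. The added 1 shrinks differences of genes near 1 CPM, so genes named together can differ in edgeR's log2 fold change. That was 6.11 for C3, beside 6.09 for CLCA2, 4.32 for ABI3BP and 6.24 for CXCL1. For CFB it was 1.13, beside 0.89, 0.91 and 0.95 in the order named. For CFI it was 1.49, beside 0.98, 0.81 and 0.77.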

How the data were processed

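Total RNA of 4 libraries was analysed (2 control, 2 Dox), grouped by their titles. The deposited tables name cutadapt, STAR, Picard and RSEM and the build hg38 in the submitters' processing notes; tool versions, strand setting and annotation release were not given in the sources used here. The deposited expected counts, TPM and FPKM are named so per the file headers. Expected counts are estimates of reads per gene, fractional in places. TPM is a per-length unit scaled to one total per library. FPKM is a per-length unit relative to sequenced reads, of which only the sum per library is given. The deposited length columns give bases. Of the gene identifiers, 99.5% matched GENCODE 29 (GRCh38), which gives the coordinates, 1-based.

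Expected counts were rounded. Genes were kept by edgeR's filterByExpr (minimum count 10, minimum total 15). After TMM scaling, the quasi-likelihood test of edgeR was run with group as the only term, with Benjamini-Hochberg adjustment over all 16749 genes and a threshold of 0.05. The SE is the log2 fold change divided by the square root of F. Software was Python 3.11.15 and R 4.3.3 with DESeq2 1.42.0, limma 3.58.1 and edgeR 4.0.16. The tests were also run on simulated counts with the same spread in both groups, unlike the control and Dox pairs here. The genes and lists were chosen with earlier results of these data known. Named beside the 9 genes are, per list, up to 3 genes with the smallest adjusted p per direction, complement genes that did not pass, the 3 nearest genes by pattern of C3, CFB and CFI, and the cell type markers; among low-count complement genes the choice followed a look at their values. Alternatives were RLE scaling, no filter, DESeq2, limma on log2(TPM + 1) and log2(TPM + 0.1), a replicate block, leaving out each library and GC-trend offsets (lowess span 0.3). Some genes that enter the counts of the lists are not reported here.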

Additional observations from a re-analysis of the deposited data

How the results depend on the processing

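C3 was higher in Dox under every alternative run, with a log2 fold change of 4.24 on log2(TPM + 1) and 5.73 on log2(TPM + 0.1), where the pseudocount compresses low control values. The activator median was 0.18 on log2(TPM + 1). The regulator median was 0.82 without the filter, 0.49 and 1.03 on the 2 TPM scales, and 0.82 to 0.87 when 1 library was left out. Of the 9 genes, 3 (C3, CFI and SERPING1) were past the threshold on both TPM scales. Deposited TPM of the 9 genes was higher in Dox replicate 2 than in Dox replicate 1. The part of that gap in the calls lost on the TPM scales was not tested. On the log2(TPM + 1), log2(TPM + 0.1) scales in turn, 596 and 637 of all genes were higher and 198 and 198 lower, and among other complement genes 1 and 1 were higher and 2 and 1 lower. Leaving out 1 library gave 1368 to 4654 higher and 1000 to 5017 lower genes, and GC-trend offsets gave 3739 lower genes. Without a filter, 5 other complement genes were higher. Of the acute-phase genes, 1 was lower with DESeq2, 1 on each TPM scale and 1 to 2 when 1 library was left out. On both TPM scales the log2 fold change of CD55, not past the threshold, turned to 0.02. The log2 fold change of C5 turned to 0.011 on log2(TPM + 1), and the cause was not tested. Beside it, 35 values of single named genes outside the 9 lost their call and 5 gained one under some alternative. All kept their direction, and C4A was among them in 4 alternatives. The activator to regulator ratio changed by -0.75 on the log2 scale, and by -0.95 with all C3 reads on its longest model, an alternative chosen after seeing the data. A replicate block gave 2972 higher and 2511 lower genes and ended the call of C1S, while C4A passed. The same-numbered samples deviated together only weakly (correlation 0.0383 across genes), so the numbers were not taken to pair them. The alternatives that leave 1 library in a group assume that it varies like the other group. At 26 to 136 control counts for CFI, CFB and C3, depth limits these levels.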

Other observations

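Genes on a list of acute-phase secreted proteins moved in both directions in these fibroblasts. Of 20 such genes outside complement, 7 were tested, of which 3 rose, 2 fell and 2 did not pass by edgeR's quasi-likelihood test. Over all tested genes, 16.5% rose and 13.8% fell. PTX3, a pentraxin that binds C1q, rose from 27.2 and 28.0 CPM to 92.2 and 103 CPM (1.82 on the log2 scale, SE 0.09, with an edgeR adjusted p = 0.0001). The serum amyloid genes SAA1 (1.53, SE 0.16) and SAA2 (1.75, SE 0.32), near-identical copies, rose as well, SAA2 not passing without control replicate 1, and their summed counts were 73 and 84 in the control and 235 and 226 in Dox. A2M, a broad protease inhibitor of the same protein family as C3, fell from 302 and 300.3 CPM to 80.6 and 85.4 CPM (log2 fold change -1.86, SE 0.08, edgeR adjusted p = 8.19e-05). SERPINA3 fell by 1.04 on the log2 scale, a call lost without control replicate 1 or 2, with DESeq2 and on both TPM scales. CRP, LCN2 and AHSG were at 0 in all 4 libraries.

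Among 12 transcription factors known to act on complement promoters, 11 were tested, of which 3 rose, 1 fell and 7 did not pass. Their median log2 fold change was 0.20. The shares over all tested genes were 16.5% higher and 13.8% lower. RELB (1.40, SE 0.15, edgeR adjusted p = 0.00125) and NFKB2 (1.16, SE 0.13, edgeR adjusted p = 0.00169), the subunits of non-canonical NF-kB, rose, calls lost on log2(TPM + 1) for both and on log2(TPM + 0.1) for NFKB2. CEBPD fell by 0.48 on the log2 scale (SE 0.10), a call lost without control replicate 1 or 2 (edgeR adjusted p = 0.127 and 0.0931) and on both TPM scales.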
